A study of Homo sapiens with 6 samples.

Results

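API5 and 7 regulators of apoptosis were followed through 6 RNA-seq libraries of the NOMO-1 line, which derives from human acute myeloid leukaemia. The 8 genes, API5, XIAP, BIRC2, BIRC3, BIRC5, BIRC6, DIABLO and CFLAR, were picked by symbol from the 15059 genes of the deposited table, and all 8 were in it. API5 led the choice because its knockout level was under 0.5 of control and it returned in rescue, so its values are given as a description with no test. Knockout cells carried a guide RNA against METTL16 (sgMETTL16) and an empty vector (EV). Rescue cells had sgMETTL16 too, together with overexpressed METTL16 (OE-METTL16), and control cells carried sgNS, the control guide, with the empty vector. Each group had 2 libraries, and every group was kept in puromycin at 2 µg/ml, per the labels' protocols. No guide sequence is named and no source used here says whether the cells were a pool or a clone. Separate cultures behind the replicates are not stated either, and every p-value therefore reflects library-to-library spread that may be technical. METTL16 is an RNA methyltransferase that modifies adenosine.

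Inhibitor of apoptosis proteins (IAPs) share a zinc-binding fold called the BIR domain. XIAP uses it to block caspases, the proteases that carry out apoptosis, while BIRC2 and BIRC3 (cIAP1 and cIAP2) are ubiquitin ligases of the tumour necrosis factor (TNF) receptor complex. BIRC5 (survivin) works mainly in mitosis as a part of the chromosomal passenger complex, and BIRC6 is a very large ubiquitin-conjugating member. DIABLO, also named SMAC, leaves the mitochondrion during apoptosis and relieves the block by IAPs. CFLAR (c-FLIP) resembles caspase-8 without its protease activity and acts at death receptors. API5 (AAC-11) has no BIR domain despite its name. It is a nuclear protein built of helical repeats, reported to restrain apoptosis triggered by E2F1 and to bind Acinus (ACIN1) and fibroblast growth factor 2 (FGF2).

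Each table entry is an RSEM abundance, here the signal, scaled for transcript length and library size. Signals summed to 597160 to 681928 per library. From the spacing of values of short transcripts, a signal of 1 stood for 45.6 to 51.3 reads over a transcript of 2000 nt. Control replicate 2 lay below the other libraries, with a median log2 deviation of -0.101 over 12734 genes, against 0.0024 to 0.04 in the other 5 libraries. All 8 members were lower in control replicate 2 than in control replicate 1, as were 89.6% of the genes tested. METTL16 itself had a signal of 6.05 and 5.83 in knockout, 12.3 and 12.1 in rescue, and 9.89 and 9.63 in control, so the knockout libraries were the lowest and the groups did not overlap. The guide's target thus kept 0.609 of its control transcript level. Of 10 monocytic markers, 8 were in the table, and their summed signal was 269.2 and 270.5 in knockout, 234.5 and 235.8 in rescue, and 202.7 and 186.8 in control. LYZ, the gene of lysozyme, carried most of the difference in this sum, with 81.9 and 87.2 in knockout, 55.0 and 57.8 in rescue, and 30.9 and 31.05 in control. Of the 8, 6 rose in knockout against control (limma, adjusted p under 0.05), beside 26.2% of all 12734 genes tested. CD4 and ITGAM did not pass and stood at 0.946 and 0.922 of their control means. In rescue against knockout 5 of the 8 fell and 1 rose, beside 15.9% and 15.6% over all genes tested. Rescue against control had 1 of the 8 risen and none fallen, beside 0.228% and 0.055% over all genes tested. The 1 risen was LYZ, by 0.845 (limma adjusted p = 7.45e-06). CD14 and MPO were not in the table. Of 16 markers of lymphoid, erythroid, epithelial and fibroblast cells only 4 were listed, with a summed signal of 2.75 to 3.6 in all libraries. The part of this marker difference in the results below was not tested. In RNA from many cells, fewer cells that express a gene and less RNA per cell cannot be told apart.

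API5 (ENSG00000166181, chromosome 11, 43311963 to 43344529, plus strand, GRCh38) had a signal of 21.7 and 22.3 in the knockout libraries, 51.8 and 52.6 in the rescue libraries, and 54.9 and 51.4 in the control libraries. Both knockout libraries lay far below the other 4, and the rescue values fell within the range of the control values. The lower control value was that of control replicate 2, whose median log2 deviation was -0.101. After median-ratio scaling and quantile normalization, rescue differed from control by -0.0909 and -0.0982 in log2(signal + 1). The means were 22.0 ± 0.456 in knockout, 52.2 ± 0.552 in rescue and 53.1 ± 2.48 in control (SD, n = 2 each). Knockout thus held 0.414 of the control level, a difference of -1.23 in log2(signal + 1), and rescue held 0.982 of it, a difference of -0.025. Rescue stood 2.37 times above knockout, a difference of 1.21. A ratio of knockout to control under 0.5, the first part of the rule that chose API5, was met by 78 of 12734 genes (0.613%). API5 ranked 32 among them. The return in rescue was not part of this count. Among genes with a mean signal of at least 5, RPL22L1 lay just under the ratio of 0.5 at 0.497 and COPG2 just over it at 0.501. None of the other 7 members came near 0.5, the lowest ratio being 0.928 for BIRC3.

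Because API5 alone moved this far, the window around its transcription start is shown, 250 bases before to 50 after the start as RefSeq gives it (chr11:43311746-43312045, GRCh38.p14, plus strand). Capitals mark 2 matches to promoter elements in the window, a GC box and a CCAAT box, both read from the minus strand and so printed as their reverse complements.
API5: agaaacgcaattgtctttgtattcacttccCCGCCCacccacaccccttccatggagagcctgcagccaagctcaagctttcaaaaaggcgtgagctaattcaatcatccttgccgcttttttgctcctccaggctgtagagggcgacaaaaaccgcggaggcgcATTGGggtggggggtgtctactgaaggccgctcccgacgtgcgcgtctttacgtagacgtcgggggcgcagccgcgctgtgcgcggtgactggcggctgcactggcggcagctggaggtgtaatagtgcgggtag
Both strands were searched for 5 motifs, and the matches do not overlap. The GC box, searched as GGGCGG, occurs in 45.0% of all 35116 start windows in that RefSeq table. The CCAAT box occurs in 34.6% of the windows. The TATA box, searched as TATAAA, is held by 11.5% of windows and did not match. The E-box, searched as CACGTG, is held by 7.26% and did not match, nor did the cyclic AMP response element TGACGTCA, held by 1.85%. Matches and their lack describe the letters of the window and nothing of any factor. The window was 59.7% G and C, and the median over all windows was 58.7%.

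METTL16 is known to methylate MAT2A messenger RNA within hairpins that carry TACAGAGAA or TACAGAAAA, spelled here as DNA, so the members' transcripts were searched on the sense strand for both. In the longest coding transcript of MAT2A in GENCODE 29 (2819 nt) TACAGAGAA occurred 5 times and TACAGAAAA once. None of the 7 coding transcripts of API5, the longest of 3714 nt, held either. Among the other members, TACAGAGAA occurred once in BIRC6, and TACAGAAAA once in BIRC3 and once in CFLAR. Each match is printed with 10 bases on either side and the match in capitals, beside 2 of the MAT2A sites.
MAT2A: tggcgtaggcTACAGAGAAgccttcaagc
MAT2A: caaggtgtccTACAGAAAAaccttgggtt
BIRC6: tgcccctttcTACAGAGAAcggtgaagag
BIRC3: tacttccgggTACAGAAAAcagtggatat
CFLAR: tctcaatagaTACAGAAAAggccttcaat
Among genes with a longest transcript within 10% of API5's length, 2.99% of 1273 held TACAGAGAA and 5.03% held TACAGAAAA. For BIRC6, whose transcript runs to 15703 nt, 22.9% of 70 genes of like length held TACAGAGAA. For BIRC3 6.5% of 1031 genes, and for CFLAR 13.8% of 94 genes of like length, held TACAGAAAA. These matches are descriptions of the letters and not sites of methylation, and the lack of one says only that the letters are not in the annotated transcript.

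**Figure D1:**
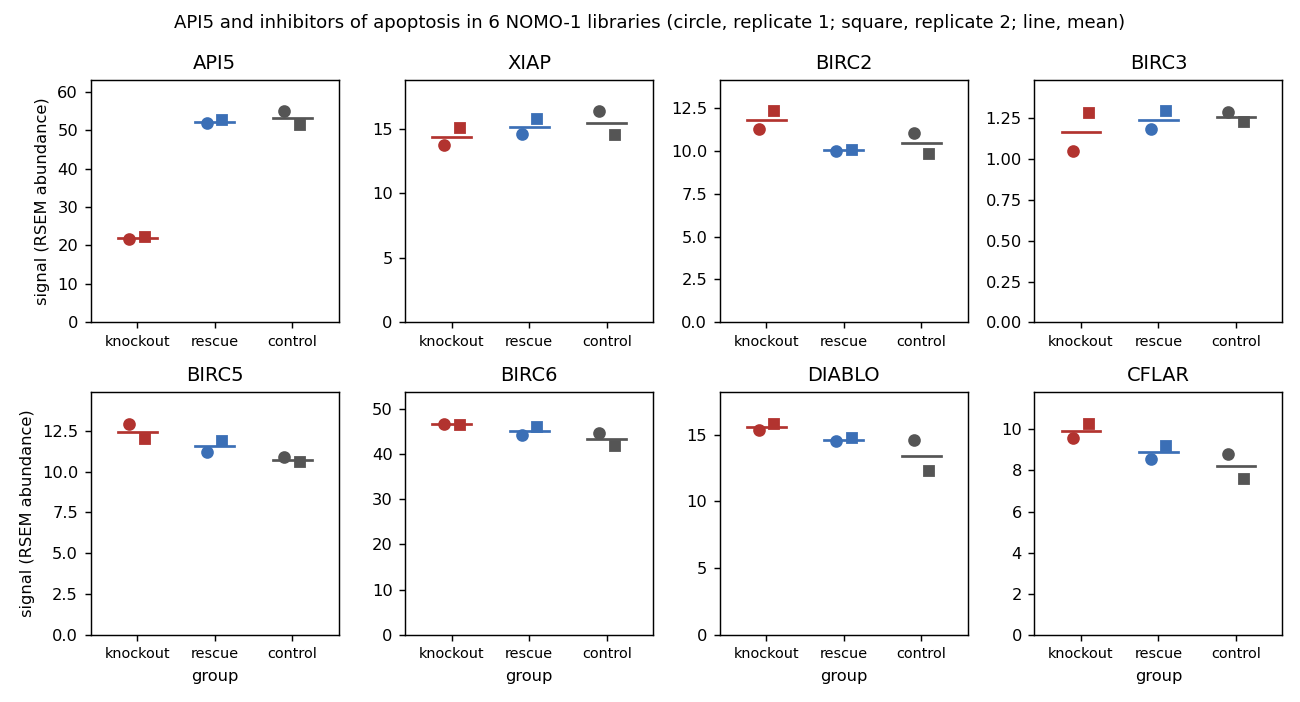
Signal (RSEM abundance, linear axis from 0) of each of the 8 genes in knockout, rescue and control libraries, with circles for replicate 1, squares for replicate 2 and lines for group means. API5 falls to 21.7 and 22.3 in knockout, while the knockout means of the other 7 genes run from 0.928 (BIRC3) to 1.21 (CFLAR) of control. BIRC2, BIRC5, BIRC6, DIABLO and CFLAR have both knockout points above both control points.

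For the other 7 members, knockout was first set against control. CFLAR was the 1 member called, at 0.25 on the log2(signal + 1) scale (limma, adjusted p = 0.0435). The other 6 did not pass, and none fell. Across all 12734 genes tested, 39.7% were called in this comparison, 26.2% as risen and 13.5% as fallen, so 1 call among 7 is no more than the share called overall. Of all calls 65.9% were risen, against 45.9% after median-ratio scaling and 49.7% after quantile normalization. The median difference of the 7 members was 0.162, and it was 0.067 over all genes tested. In 5 of the 7 the knockout libraries lay above both control libraries, where 68.5% of all genes tested had groups that did not overlap in either direction.

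Among the IAPs that act on caspases and TNF signalling, XIAP (ENSG00000101966, chromosome X, 123859724 to 123913979, plus strand) had a signal of 13.7 and 15.0 in knockout, 14.6 and 15.7 in rescue, and 16.3 and 14.5 in control. The 3 groups overlapped. Knockout differed from control by -0.094 (95% interval -0.27 to 0.084, limma adjusted p = 0.393), and it passed as lower after median-ratio scaling (-0.182, adjusted p = 0.039). BIRC2 (ENSG00000110330, chromosome 11, 102347211 to 102378670, plus strand) had 11.3 and 12.3 in knockout, 10.01 and 10.04 in rescue, and 11.05 and 9.80 in control. Its knockout libraries were the highest, by 0.162 against control (95% interval -0.022 to 0.346, limma adjusted p = 0.15), and rescue was 0.211 below knockout (95% interval -0.396 to -0.027, limma adjusted p = 0.0761). BIRC3 (ENSG00000023445, chromosome 11, 102317450 to 102339403, plus strand) lies 7.8 kb from BIRC2 and was the least abundant member, with 1.05 and 1.28 in knockout, 1.18 and 1.29 in rescue, and 1.29 and 1.23 in control. All 6 values lay near the filter of 1 used for the test. BIRC3 differed by -0.061 in knockout against control, with the widest interval of the 7 (-0.297 to 0.175, limma adjusted p = 0.692). Without knockout replicate 1 the BIRC3 difference turned to 0.0164, so its direction is not settled by these libraries.

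BIRC5 (ENSG00000089685, chromosome 17, 78214186 to 78225636, plus strand) had a signal of 12.9 and 12.0 in knockout, 11.2 and 11.9 in rescue, and 10.9 and 10.6 in control. No 2 of its groups overlapped, with rescue between knockout and control. The difference of knockout from control was 0.199 (95% interval 0.027 to 0.371, limma adjusted p = 0.0631), which missed the threshold. BIRC6 (ENSG00000115760, chromosome 2, 32357028 to 32618899, plus strand) had 46.7 and 46.5 in knockout, 44.2 and 45.9 in rescue, and 44.6 and 41.8 in control. Knockout was the highest group, by 0.107 against control (95% interval -0.024 to 0.237, limma adjusted p = 0.180). BIRC6-AS2, listed under a symbol that names it as an antisense gene of BIRC6, had 4.30 and 4.99 in knockout, 3.97 and 6.36 in rescue, and 5.80 and 4.36 in control, and these values overlapped in all groups.

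DIABLO, the IAP antagonist, is annotated in GENCODE 29 as 2 overlapping genes on the minus strand of chromosome 12 (ENSG00000284934, 122207662 to 122227534, and ENSG00000184047, 122207663 to 122226568), and the table has 1 row for the symbol. Its signal was 15.3 and 15.8 in knockout, 14.5 and 14.8 in rescue, and 14.6 and 12.3 in control. Knockout lay above both other groups, by 0.204 against control (95% interval 0.023 to 0.385, limma adjusted p = 0.0689). It passed in 4 of 14 alternative settings, with adjusted p from 0.00736 to 0.254. Without control replicate 2 the DIABLO difference was 0.0904 (adjusted p = 0.252), and without control replicate 1 it was 0.317 (adjusted p = 0.00736). CFLAR (ENSG00000003402, chromosome 2, 201116104 to 201176687, plus strand) had 9.58 and 10.3 in knockout, 8.58 and 9.18 in rescue, and 8.82 and 7.59 in control. Knockout was the highest group, while rescue and control overlapped. Its rise of 0.25 (95% interval 0.053 to 0.447) passed in 5 of 14 alternative settings, with adjusted p from 0.0148 to 0.248. Leaving out control replicate 2 gave 0.153 (adjusted p = 0.164), and leaving out knockout replicate 1 gave 0.296 (adjusted p = 0.0812). Without knockout replicate 2 it was 0.204 (adjusted p = 0.248), and without either rescue library the adjusted p was 0.0587 or 0.0594. CFLAR-AS1, an antisense gene within CFLAR, stood 0.313 above control in knockout (limma adjusted p = 0.0434) with 2.26 and 1.94 in knockout, 1.84 and 1.57 in rescue, and 1.66 and 1.34 in control. The kit keeps strand, but no source used here says whether the quantification did, so reads of this pair may not be separated.

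**Figure D2:**
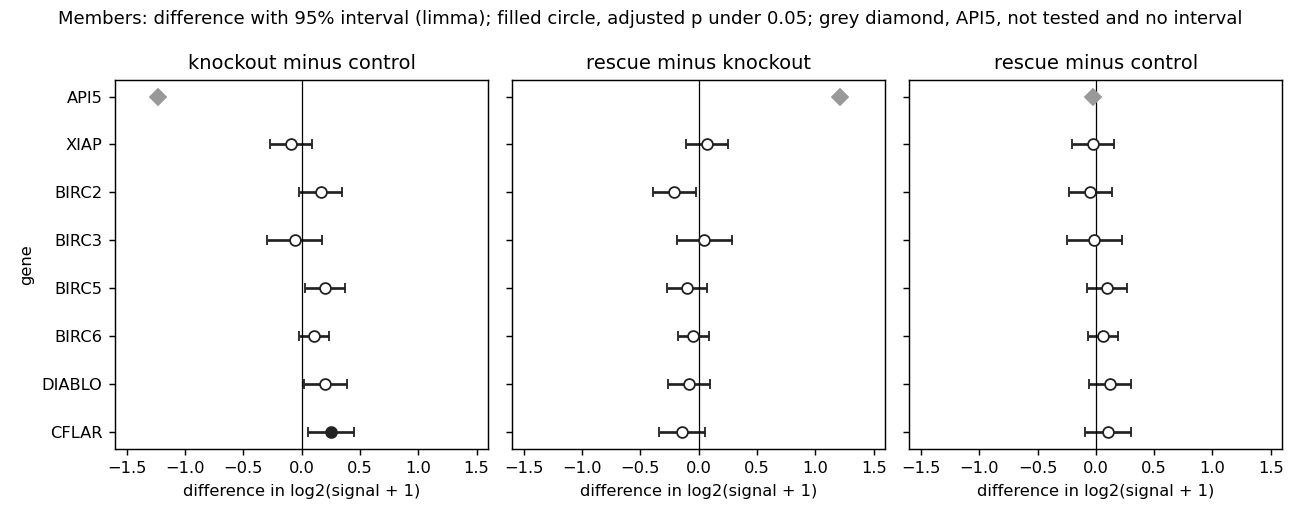
Difference in log2(signal + 1) of each gene (rows) in 3 panels, for knockout minus control, for rescue minus knockout, and then for rescue minus control, with 95% intervals from limma. Filled circles passed an adjusted p of 0.05, open circles did not, and the grey diamond is API5, which was not tested. CFLAR in knockout minus control, at 0.25, is the only filled circle, and the 7 tested genes lie between -0.211 and 0.25.

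Rescue against knockout asked what differed once METTL16 was overexpressed, and it shares the knockout libraries with the comparison above. None of the 7 members passed limma's test, beside 31.4% called over all genes. BIRC2 alone had an unadjusted p under 0.05, as fallen, where 2750 of 12734 genes fell and 2616 rose at that threshold. So 1 among 7 is no more than the share over all genes. In 5 members, BIRC2, BIRC5, BIRC6, DIABLO and CFLAR, rescue libraries lay below the knockout libraries, with no overlap, and 72.9% of all genes tested did not overlap in either direction. BIRC2 was called as fallen in 5 of 14 alternative settings, with adjusted p from 0.0278 to 0.433. Without control replicate 1 its adjusted p was 0.0328, and without control replicate 2 it was 0.0326, at an unchanged difference of -0.211. CFLAR differed by -0.146, BIRC5 by -0.101, DIABLO by -0.083 and BIRC6 by -0.047, each with an adjusted p of 0.248 or more. XIAP differed by 0.072 and BIRC3 by 0.047, and BIRC3 turned to -0.0298 without knockout replicate 1.

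In rescue against control none of the 7 passed, where limma called 0.283% of all genes, 0.228% as risen and 0.055% as fallen. None of the 7 had an unadjusted p under 0.05, where 1327 of 12734 genes rose and 136 fell. The differences ran from -0.049 for BIRC2 to 0.121 for DIABLO, whose 95% interval was -0.061 to 0.302. BIRC5 was the 1 member with rescue and control libraries that did not overlap, a property of 39.9% of all genes tested.

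The signal is scaled for length, so levels of the members can be set side by side within a group. In knockout BIRC6 was the highest at a mean of 46.6, followed by API5 at 22.0. DIABLO at 15.6, XIAP at 14.4, BIRC5 at 12.5, BIRC2 at 11.8 and CFLAR at 9.93 came next, and BIRC3 at 1.17 was last. In that order BIRC5 and BIRC2 overlapped between their libraries, and no other neighbours did. In control API5 led at 53.1 and BIRC6 followed at 43.2. XIAP at 15.4 and DIABLO at 13.4 overlapped, as did BIRC5 at 10.7 and BIRC2 at 10.4, ahead of CFLAR at 8.21 and BIRC3 at 1.26. In rescue the order matched that of control, and again XIAP at 15.2 and DIABLO at 14.6 overlapped, while BIRC5 at 11.5 and BIRC2 at 10.0 did not.

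Other genes of the pathway were taken from 7 lists with 53 tested genes in all. Of these, 24 rose and 7 fell in knockout against control, which is 45.3% and 13.2%, beside 26.2% risen and 13.5% fallen over all genes tested. The share that fell is thus that of all genes. The 24 were 12 without control replicate 2, 10 without knockout replicate 1 and 14 without knockout replicate 2. The 7 caspases of apoptosis showed 6 risen and none fallen, beside 26.2% and 13.5% over all genes tested. At an unadjusted p under 0.05 their counts were the same, where 4047 of 12734 genes rose and 2122 fell. Their median was 0.371, against 0.067 over all genes. CASP6, an executioner, had a signal of 13.55 and 14.0 in knockout, 11.55 and 11.3 in rescue, and 10.2 and 9.60 in control. Its groups did not overlap, with knockout 0.44 above control (limma adjusted p = 0.000609) and rescue 0.25 below knockout (limma adjusted p = 0.0263). CASP10, an initiator at death receptors, rose by 0.37 in knockout. CASP8, the initiator that CFLAR resembles, was chosen after its values were seen. It was at 0.088 (limma adjusted p = 0.420). In rescue against knockout 3 of the 7 fell and none rose, where 15.9% of all genes fell and 15.6% rose. The count of 6 risen caspases was 3 without control replicate 2, 2 without knockout replicate 1 and 3 without knockout replicate 2. The count of 3 fallen in rescue was 1 without knockout replicate 1 and 1 without rescue replicate 1, and 5 after median-ratio scaling.

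Of 12 listed death receptors, ligands and adaptors 9 were tested, 5 rose (55.6%) and 1 fell (11.1%) in knockout, with a median of 0.366. Over all genes 26.2% rose and 13.5% fell. TNFSF10, which encodes the death ligand TRAIL, had 4.21 and 3.71 in knockout, 2.12 and 1.43 in rescue, and 1.51 and 1.34 in control, a rise of 1.03 (limma adjusted p = 3.03e-05). TNFRSF1A, the main TNF receptor, rose by 0.51 and RIPK1, the kinase that BIRC2 and BIRC3 ubiquitinate, by 0.48. TNFRSF10B, a TRAIL receptor and the 1 that fell, was chosen after its values were seen. It had 19.3 and 18.8 in knockout, 24.8 and 25.8 in rescue, and 24.7 and 22.7 in control, a difference of -0.30 (limma adjusted p = 0.00373). In rescue against knockout 1 of the 9 rose (11.1%) and 3 fell (33.3%), beside 15.6% and 15.9% over all genes. The 5 risen in knockout were 3 without control replicate 2.

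Of the 7 IAP antagonists and apoptosome genes 6 were tested, and 3 rose (50%) and 1 fell (16.7%) in knockout, beside 26.2% and 13.5% over all genes, with a median of 0.243. XAF1, which binds XIAP and opposes it, had 4.11 and 4.08 in knockout, 2.35 and 2.37 in rescue, and 2.45 and 1.98 in control. That is a rise of 0.67 in knockout (limma adjusted p = 0.000251), with rescue 0.60 below knockout (limma adjusted p = 0.000856). APAF1, the scaffold of the apoptosome, rose by 0.47. CYCS, which encodes cytochrome c and triggers APAF1, fell by 0.32, with 34.1 and 35.5 in knockout, 43.1 and 45.5 in rescue, and 45.0 and 42.7 in control. In rescue against knockout 1 of the 6 rose and 2 fell, beside 15.6% and 15.9% over all genes. The 1 risen was 2 without either control library, and the 2 fallen were 1 without knockout replicate 2 or rescue replicate 1.

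In the TNF receptor ubiquitin complex and its NF-kB kinases, where BIRC2 and BIRC3 act, 19 of 20 genes were tested, 6 rose (31.6%) and 3 fell (15.8%) in knockout, with a median of 0.147. These shares are near the 26.2% and 13.5% over all genes and show nothing about the list as a whole. NFKB2, a subunit of the NF-kB branch that cIAPs hold in check, had 10.27 and 10.35 in knockout, 7.42 and 6.96 in rescue, and 6.71 and 6.65 in control. It rose by 0.56 (limma adjusted p = 0.000175). CYLD, a deubiquitinase, rose by 0.53, and TRAF5, an adaptor of the receptors, fell by 0.51. In rescue against knockout 3 rose and 3 fell (15.8% each), again near the 15.6% and 15.9% over all genes. The 6 risen were 3 without control replicate 2 and 2 without knockout replicate 1, and the 3 fallen in knockout were 6 after median-ratio scaling. In rescue the 3 fallen were 7 without either control library, and the 3 risen were 1 without rescue replicate 2.

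The 7 genes of the chromosomal passenger complex and its partners, the mitotic setting of BIRC5, had 2 risen and 2 fallen in knockout (28.6% each), beside 26.2% and 13.5% over all genes, with a median of 0.043. BUB1, a spindle checkpoint kinase, had 34.7 and 34.8 in knockout, 51.5 and 52.5 in rescue, and 55.8 and 53.8 in control, a fall of 0.64 (limma adjusted p = 2.42e-06). AURKB, the kinase of the complex, fell by 0.27, and KIF20A, a mitotic kinesin, rose by 0.23. The 2 risen were 0 without control replicate 2 or either knockout library, and 1 without either rescue library. In rescue against knockout 3 of the 7 rose, beside 15.6% of all genes, and limma called none as fallen. At an unadjusted p under 0.05, 2 of the 7 fell, where 2750 of 12734 genes did. Without either control library, and after median-ratio scaling, 2 fell, and the 3 risen were 1 without knockout replicate 2 or either rescue library.

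Of 5 reported partners of API5, 4 were tested, and ALYREF (0.17, limma adjusted p = 0.0265), an mRNA export adaptor, and ACIN1 (0.17, limma adjusted p = 0.0436) rose in knockout, 2 of 4 beside 26.2% of all genes. Both calls were lost after median-ratio scaling and without either knockout or either rescue library, and 1 of the 2 was lost without control replicate 2. None of the 4 passed limma's test in rescue against knockout, nor had an unadjusted p under 0.05. Over all 12734 genes, 2616 rose and 2750 fell at that unadjusted threshold. FGF2 was below the filter, with 0.229 and 0.268 in knockout, 0.166 and 0.235 in rescue, and 0.370 and 0.348 in control. Of the other BIR proteins NAIP alone was in the table and did not pass, at 0.15 in knockout. In rescue against control no gene of the 7 lists passed limma's test, and 4 had an unadjusted p under 0.05, all as risen. Over all 12734 genes tested, 1327 rose and 136 fell at that threshold. The 4 are thus no more than the share over all genes.

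**Figure D3:**
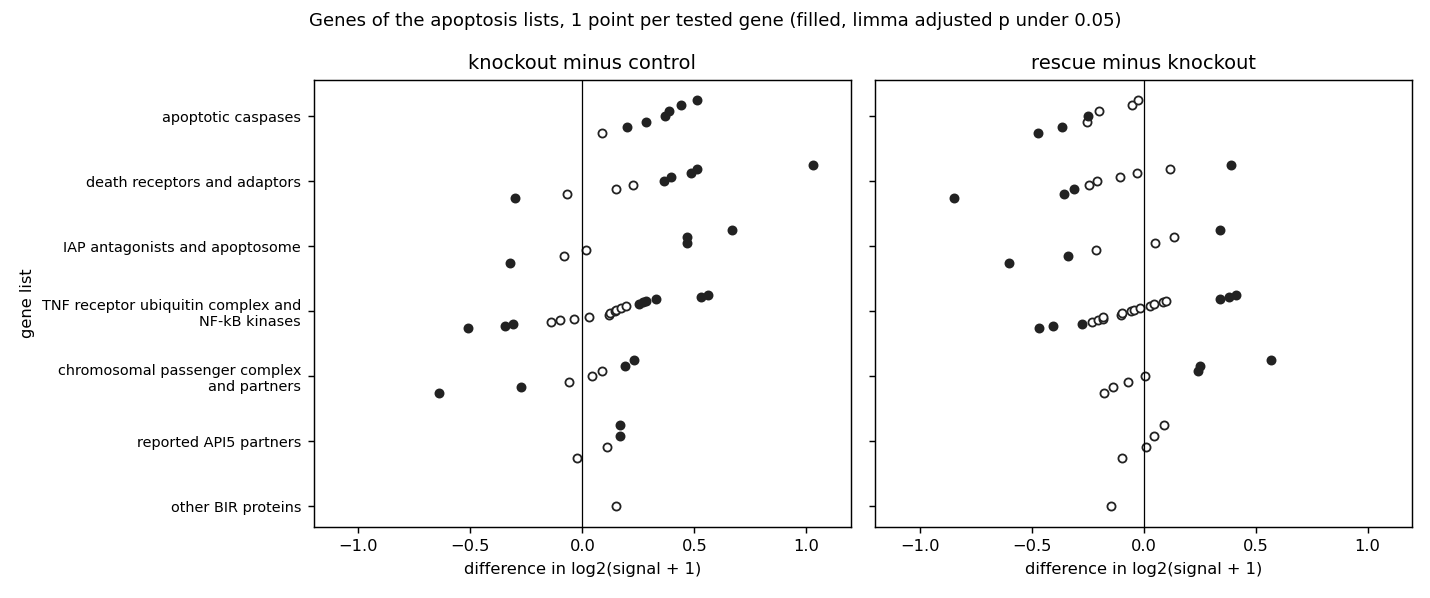
Difference in log2(signal + 1) for knockout minus control and for rescue minus knockout, 1 point per tested gene, by list, with filled points past an adjusted p of 0.05 in limma. The 7 caspases have 6 filled points above 0 in knockout minus control, where 26.2% of all genes tested rose. They have 3 filled points below 0 in rescue minus knockout, where 15.9% of all genes tested fell.

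The genes whose profile lay nearest to that of API5 were sought over the 6 libraries by the Euclidean distance between log2(signal + 1) values, each gene centred on its own mean, among 8827 genes with a mean signal of at least 5. The nearest was PUS7, a pseudouridine synthase, at a distance of 0.102, with 7.64 and 7.24 in knockout, 18.94 and 18.94 in rescue, and 19.1 and 17.7 in control. NDUFS3, a subunit of respiratory complex I, followed at 0.162, and MRPL21, a protein of the mitochondrial ribosome, at 0.178. XPOT, which exports transfer RNA, came at 0.179, PFKL, a phosphofructokinase of glycolysis, at 0.192 and ETV5, an ETS transcription factor, at 0.216. The other members tested at this level were farther, from 1.32 for XIAP to 1.65 for CFLAR. These were ranks 2793 and 6728 among the 8827 genes. API5 was chosen for its large change, so such distances are no result about these members.

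**Figure D4:**
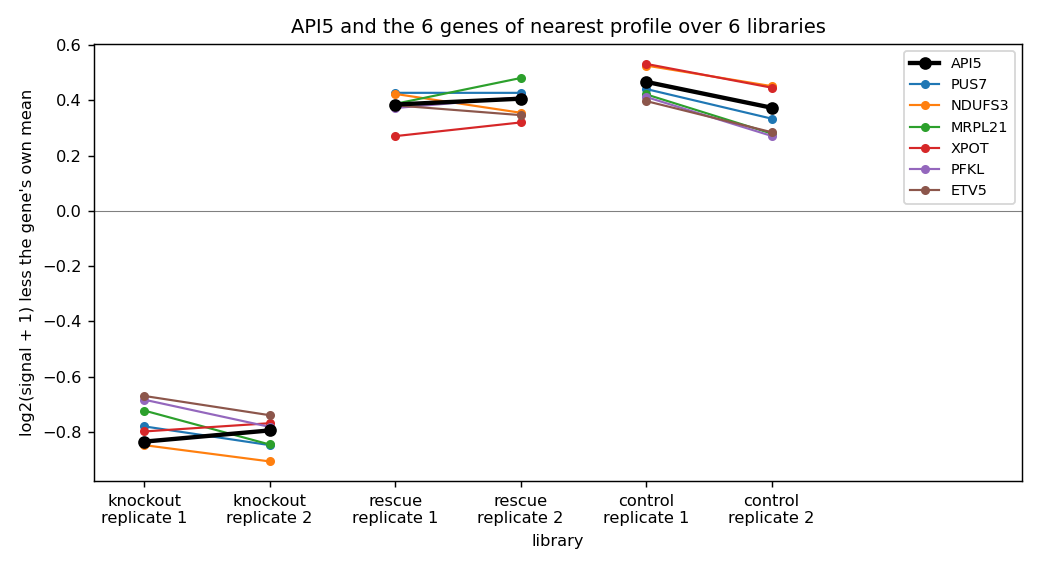
Log2(signal + 1) less each gene's own mean (y axis) in the 6 libraries (x axis), with API5 as the thick black line and the 6 genes of nearest profile as thin lines. All 7 genes sit below their mean in both knockout libraries and above it in both rescue and both control libraries.

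Neither neighbour of API5 on chromosome 11 passed the test. TTC17, which starts 14.4 kb downstream on the same strand, had 15.4 and 15.6 in knockout, 17.6 and 18.1 in rescue, and 18.1 and 15.8 in control. Knockout differed from control by -0.11 (limma adjusted p = 0.268). The nearest tested gene on the other side, C11orf74, lies 6652.7 kb away and was at -0.086 (limma adjusted p = 0.476). Over all members, 14 neighbours that are not themselves members were tested, of which 3 rose (21.4%) and 2 fell (14.3%) in knockout, near the 26.2% and 13.5% over all genes. VPS33A, 2.0 kb from DIABLO and a subunit of vesicle-tethering complexes, had 13.9 and 12.55 in knockout, 9.83 and 10.4 in rescue, and 10.01 and 8.56 in control, a rise of 0.47 (limma adjusted p = 0.00115). TMEM123, next to BIRC2, was at 0.021 (limma adjusted p = 0.813).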

How the data were processed

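Total RNA of NOMO-1 cells, depleted of ribosomal RNA, was made into stranded libraries and sequenced on an Illumina HiSeq, per the labels' protocols. STAR, RSEM and GRCh38 are named in the submitters' processing notes, with no versions. The authors deposited 1 signal value per gene and library, an RSEM abundance that no header names as TPM or FPKM, with no value of 0. Groups and columns were matched by the labels, and no value column was left without a sample. The filter asked for a signal of 1 or more in 2 or more libraries, which kept 12734 genes and left out 2325. All 8 members passed. limma 3.58.1 in R 4.3.3 was fitted with a trend on log2(signal + 1) to all 6 libraries (3 residual and 11 prior degrees of freedom). Adjusted p is Benjamini-Hochberg over all genes tested, two-sided, with a threshold of 0.05. Adding 1 shrinks differences of low signals. The test was tried on simulated data first. Members, lists and the named-gene rule were chosen with earlier results of these data known. The rule takes all members, up to 3 called genes per list with the smallest p, the 6 nearest profiles to API5 and the nearest neighbours. List genes named outside it, such as CASP8 and TNFRSF10B, were chosen after their values were seen. Symbols matched GENCODE 29 for 11870 of 12734 genes. Read depth is not stated, and it was estimated from values of 28 to 38 short transcripts per library, of which 78.9% to 91.2% lay within 0.15 of a whole read count for the best step. That step was chosen on the same values, so the match overstates the fit. Sequence searches and figures used Python 3.11.15 with pandas 2.3.3, and matplotlib 3.10.9 for drawing. Some items of the lists are not reported here.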

Additional observations from a re-analysis of the deposited data

How the results depend on the processing

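The members' differences and the counts of calls were recomputed under 14 alternatives (13 for BIRC3, whose mean signal is under 5). CFLAR, the 1 member called, kept its sign in all 14. Single genes of the lists and neighbours were not recomputed one by one. CFLAR in knockout against control lost its call at 0.25 with no filter, without a trend and with only the 2 groups in the fit, and at 0.166 after median-ratio scaling. DIABLO passed there at 0.204 with a mean signal of at least 5 and with the replicate block and at 0.142 after quantile normalization, and XIAP at -0.182 after median-ratio scaling. BIRC2 in rescue against knockout passed at -0.187 after median-ratio scaling, -0.205 after quantile normalization and -0.211 with only the 2 groups. API5 in knockout against control was -1.33 after median-ratio scaling and -1.30 after quantile normalization, and in rescue against control -0.0909 and -0.0982. Risen members in knockout (1) were 0 with no filter, median-ratio scaling, no trend or only the 2 groups, and 2 with the higher minimum, quantile normalization or the replicate block, while fallen members were 1 after median-ratio scaling. Fallen members in rescue against knockout (0) were 1 with median-ratio scaling, quantile normalization or only the 2 groups. Fallen list genes were 13 in knockout against control after median-ratio scaling, and in rescue against knockout 19, 18 and 19 with median-ratio scaling, quantile normalization and only the 2 groups. Over all genes, fallen calls in knockout were 3435 after median-ratio scaling and 3187 after quantile normalization, and risen calls in rescue against knockout 3102 after median-ratio scaling. In rescue against control, risen calls (29) were 17 with no filter, 194 with the higher minimum, 6 with median-ratio scaling, 19 with quantile normalization, 5 without a trend and 209 with only the 2 groups, and fallen calls (7) were 31 with the higher minimum, 0 with median-ratio scaling, 14 with quantile normalization, 4 without a trend and 68 with only the 2 groups. The causes of these shifts were not tested.

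Leaving out 1 library at a time leaves a lone sample that is assumed to vary like the other groups. In knockout against control API5 then ran from -1.28 to -1.19, CFLAR from 0.153 to 0.346, DIABLO from 0.0904 to 0.317, BIRC2 from 0.0835 to 0.241, BIRC5 from 0.148 to 0.249, BIRC6 from 0.0607 to 0.153, XIAP from -0.174 to -0.0148 and BIRC3 from -0.138 to 0.0164. Without control replicate 1, DIABLO, BIRC2 and BIRC6 passed as well. API5 ran from 1.19 to 1.23 in rescue against knockout and from -0.0715 to 0.022 in rescue against control, while in rescue against knockout BIRC2 ran from -0.27 to -0.153 and BIRC3 from -0.0298 to 0.125. In rescue against control, where no member was called, API5, XIAP, BIRC2, BIRC3 and BIRC6 each changed sign in 1 or 2 alternatives. Risen members in knockout numbered 0 to 4 and fallen members in rescue against knockout 0 to 1. List genes in knockout numbered 10 to 25 risen and 6 to 7 fallen, and in rescue against knockout 4 to 9 risen and 7 to 19 fallen. Over all genes, knockout had 2065 to 4127 risen and 1182 to 2257 fallen, rescue against knockout 1154 to 2492 and 1119 to 2538, and rescue against control 6 to 213 and 1 to 73.

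No source used here says whether equal replicate numbers were paired. Replicate differences correlated at -0.011 between knockout and control, 0.101 between rescue and knockout and -0.0481 between rescue and control. With 2 libraries a group these values cannot settle whether the libraries were paired. With the replicate block, members risen in knockout were 2, and risen and fallen calls over all genes in rescue against control were 299 and 83. With 2 libraries a group, small differences of BIRC3, at a signal near 1, were the least precise.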
